A study of Rattus norvegicus with 9 samples.

Results

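The Slc22 genes encode membrane transporters of organic anions, organic cations, carnitine and urate, and many of them serve the kidney's proximal tubule. The set described here is every gene of the deposited expression table whose symbol starts with Slc22a, and it holds 16 of the table's 11235 genes. They were followed through 9 poly(A) RNA libraries of rat kidney in 3 groups of 3. The rats were wild-type Sprague-Dawley animals, given in the sample protocols as 6 to 8 weeks old and of both sexes. The I/R + rapamycin group had ischaemia/reperfusion injury, in which renal blood flow was stopped for 45 min and then restored, and received rapamycin, an inhibitor of mTOR complex 1. The I/R group had the injury without the drug, and the sham group had the operation without ischaemia.

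The descriptions of the experiment differ on several points, so the rapamycin dose and route, the reperfusion time and the sex of the sequenced rats are unsettled. The series design names male rats, a clamp on the left renal artery and intraperitoneal rapamycin at 1 mg/kg per day. The sample protocols name 6 groups, with oral rapamycin at 1 or 2 mg/kg per day and reperfusion for 3 or 7 days. Replicates are numbered but are not said to come from separate animals, so each p-value measures the spread between these libraries, which may be technical. Total counts ranged from 44582251 in I/R + rapamycin 1 to 60538627 in sham 3, and the filter on low counts left 17335 genes for testing. All 16 Slc22 genes passed that filter, and the lowest count of Slc22a2 in any library was 3454. The libraries are labelled both as kidney tissue and as renal tubular cells. Levels of 1 gene across libraries are given in CPM, read counts scaled by library size with TMM factors. Summed over 19 measured proximal tubule markers, the level was 21750.1 to 24762.3 CPM in I/R + rapamycin, 25668 to 28920.3 CPM in I/R and 21205.9 to 26501.8 CPM in sham. The 6 podocyte markers, from glomerular cells that are not tubular, summed to 500.9 to 713.1 CPM in I/R + rapamycin, 526.5 to 763.1 CPM in I/R and 794 to 828.8 CPM in sham. None of these markers was at 0 in a library. No gene of the expression table was on chromosome Y and none of 8 listed Y-linked genes had a row there, so sex was not read from it.

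In the proximal tubule, a transporter on the blood side takes a solute into the cell and another on the urine side releases it. Slc22a6 (OAT1) and Slc22a8 (OAT3) take up organic anions, including many drugs and uraemic toxins, from the blood in exchange for dicarboxylates. Slc22a2 (OCT2) takes up organic cations such as metformin, driven by the membrane potential. Slc22a7 (OAT2) carries organic anions and nucleotides, and Slc22a12 (URAT1) exchanges urate on the urine side. Slc22a5 (OCTN2) is the sodium-coupled carnitine transporter, and Slc22a4 (OCTN1) carries ergothioneine. The 5 main renal members are listed in the files as Slc22a2 (ENSRNOG00000016625), Slc22a6 (ENSRNOG00000018215), Slc22a7 (ENSRNOG00000018420), Slc22a8 (ENSRNOG00000018086) and Slc22a12 (ENSRNOG00000021108). How reads shared by similar family members were assigned is not stated, so levels of closely related members are uncertain to that extent.

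The promoters of 4 members are shown because they stand for the patterns described below. They are Slc22a2, the gene that differed between groups, Slc22a8, an abundant gene with overlapping groups, and Slc22a7 and Slc22a13, which varied within groups. RefSeq (build GRCr8) gave windows of 250 bases before to 50 bases after the annotated start for 14 of the 16 genes. Those printed lie at chr1:50710970-50711269 (minus strand), chr1:214927034-214927333 (plus strand), chr9:22045248-22045547 (plus strand) and chr8:127811701-127812000 (minus strand). Capitals mark matches to the motifs searched on both strands, of which there is 1 in these windows, in Slc22a13.
Slc22a2: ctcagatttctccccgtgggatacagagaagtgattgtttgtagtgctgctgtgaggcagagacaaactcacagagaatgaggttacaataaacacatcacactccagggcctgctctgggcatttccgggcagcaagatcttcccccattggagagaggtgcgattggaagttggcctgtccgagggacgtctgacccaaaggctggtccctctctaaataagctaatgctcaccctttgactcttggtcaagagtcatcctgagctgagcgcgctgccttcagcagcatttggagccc
Slc22a8: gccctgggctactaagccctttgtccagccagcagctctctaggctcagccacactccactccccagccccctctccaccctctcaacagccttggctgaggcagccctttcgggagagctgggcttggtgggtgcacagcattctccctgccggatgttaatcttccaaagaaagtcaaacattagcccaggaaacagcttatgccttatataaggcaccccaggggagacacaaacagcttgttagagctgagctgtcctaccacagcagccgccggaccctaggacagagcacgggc
Slc22a7: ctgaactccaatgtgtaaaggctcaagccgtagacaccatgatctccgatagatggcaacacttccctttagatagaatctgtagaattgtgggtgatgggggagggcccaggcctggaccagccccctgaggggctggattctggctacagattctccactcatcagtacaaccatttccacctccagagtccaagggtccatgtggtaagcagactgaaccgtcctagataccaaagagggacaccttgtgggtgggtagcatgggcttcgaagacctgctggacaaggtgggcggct
Slc22a13: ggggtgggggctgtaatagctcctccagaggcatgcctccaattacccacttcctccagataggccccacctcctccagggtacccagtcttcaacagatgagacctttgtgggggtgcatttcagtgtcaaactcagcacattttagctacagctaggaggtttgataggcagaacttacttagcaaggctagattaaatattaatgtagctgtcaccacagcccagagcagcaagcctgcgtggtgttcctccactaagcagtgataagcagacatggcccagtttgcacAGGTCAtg

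The motif searches were made for sites of the factor HNF4, nuclear receptors and a TATA box. The nuclear receptor element AGGTCA was found in 3 of the 14, Slc22a13, Slc22a23 and Slc22a25, and in 16.2% of 33469 rat promoters of the same length. TATAAA was found in Slc22a24 alone among the 14, at position -236 from the start, and in 14.2% of all. No window held the HNF4 site CAAAGTCCA, which occurred in 0.391% of all promoters. None held the androgen receptor site (AGAACA, any 3 bases, then TGTTCT), found in 0.0149%. The windows of Slc22a2, Slc22a7, Slc22a8 and Slc22a12 held none of these letters. Each motif was searched only as the letters given. Other forms of these sites, such as variant TATA boxes, were not searched and may be present. A match is a description of letters, and no binding was measured.

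Levels of different genes were compared in FPKM, which divides reads by transcript length and library size. Slc22a6 was the most abundant member in each group, at 193.1 ± 18.6 FPKM in I/R + rapamycin, 237.1 ± 23.8 FPKM in I/R and 234.7 ± 32.2 FPKM in sham (SD, n = 3 each). Slc22a8 followed at 181.8 ± 14.2, 182.4 ± 26.9 and 201.8 ± 16.8 FPKM in I/R + rapamycin, I/R and sham, and its range overlapped that of Slc22a6 in I/R + rapamycin and in sham but not in I/R. The summed FPKM was 925.5 to 1015 in I/R + rapamycin, 1005.6 to 1067.1 in I/R and 916.7 to 1060.4 in sham, so the groups overlapped.

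Below these, Slc22a5 averaged 82.4 FPKM over the 9 libraries, Slc22a25 68.6, Slc22a18 67.4, Slc22a12 56.6 and Slc22a2 53.7. Slc22a24 averaged 34.2 FPKM, Slc22a7 30.2 and Slc22a23 29.4. The least abundant members averaged 10.3 FPKM for Slc22a13, 7.83 for Slc22a4, 6.91 for Slc22a17, 5.03 for Slc22a15 and 4.03 for Slc22a21. Most neighbours in this middle and lower order had overlapping ranges. Slc22a2 moved in this order: it stood at 34.3 ± 2.24 FPKM in I/R + rapamycin, next to Slc22a7 and Slc22a23, at 50.5 ± 6.37 FPKM in I/R, below Slc22a18, and above Slc22a5 in sham at 76.2 ± 13.2 FPKM (SD, n = 3 each).

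Slc22a2, a main renal uptake transporter for organic cations, was lower in injured kidneys given rapamycin than in sham kidneys. Its level was 79.8, 87.6 and 87.5 CPM in the I/R + rapamycin libraries, 101.2, 140.5 and 117.5 CPM in I/R libraries, and 141.5, 207 and 202.2 CPM in the sham libraries. Every I/R + rapamycin library was below every I/R library, and every I/R library was below every sham library, although I/R 2 and sham 1 lay close together.

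**Figure D1:**
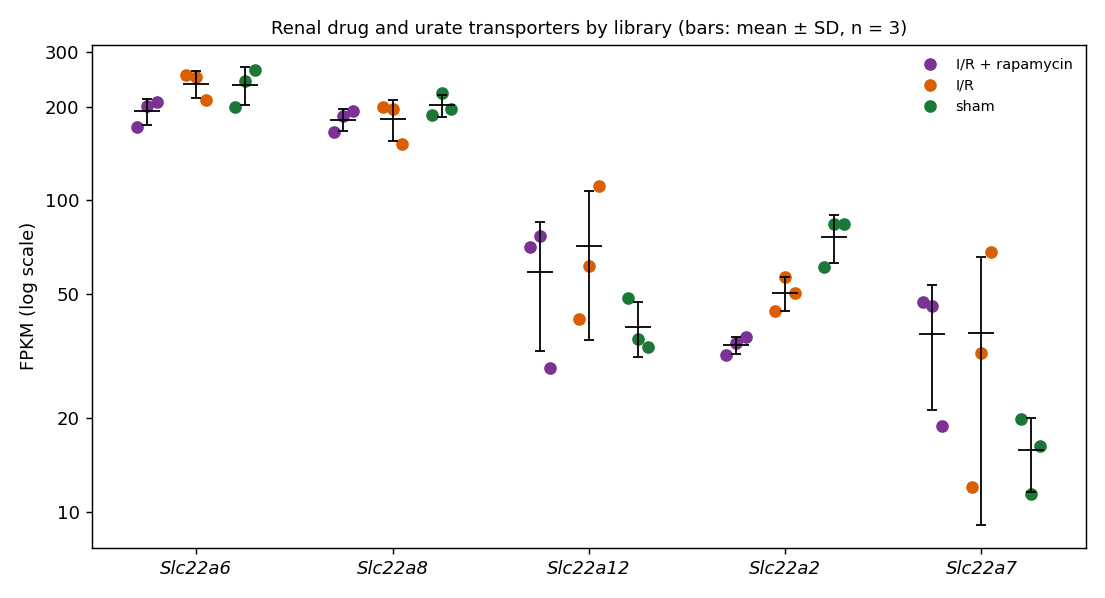
Level in FPKM (y axis, log scale) of the 5 main renal members in each of the 9 libraries (points), with the group mean (wide line) and SD (error bar, n = 3), for I/R + rapamycin, I/R and sham from left to right. Slc22a2 is at 31.9 to 36.3 FPKM in I/R + rapamycin, 44.1 to 56.8 FPKM in I/R and 60.9 to 84 FPKM in sham, while the groups of the other 4 overlap, except that Slc22a6 is at 171.8 to 206.3 FPKM in I/R + rapamycin and 209.7 to 252.5 FPKM in I/R.

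Between treated injured kidneys and uninjured ones, Slc22a2 fell to 0.463 of its sham level, with the log2 fold change at -1.11 (SE 0.16; adjusted p = 0.0278, edgeR's quasi-likelihood test with Benjamini-Hochberg adjustment over 17335 genes). It was the 1 Slc22 gene of 16 called at an adjusted p below 0.05, against 0.156% of all genes tested and 0.115% called lower. DESeq2 called the same 1 member and 3.31% of all genes. The adjusted p of the other 15 ranged from 0.353 to 0.893. The call did not hold without I/R + rapamycin 1 (adjusted p = 0.151), I/R + rapamycin 2 (0.144), I/R + rapamycin 3 (0.0568), sham 2 (0.0889) or sham 3 (0.0505) in the same edgeR test. In bulk RNA, fewer cells of a type and less RNA per cell cannot be told apart.

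In I/R against sham, the comparison for the injury alone, Slc22a2 had a log2 fold change of -0.62 (SE 0.16, edgeR adjusted p = 0.273). None of the 16 members passed, against 0.0577% of all genes. At an unadjusted p below 0.05, 1 member passed, Slc22a2, against 9.42% of all genes. DESeq2 gave Slc22a2 an adjusted p of 0.0219 in this comparison and called 1.38% of all genes.

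In I/R + rapamycin against I/R, the comparison for the drug's effect after injury, Slc22a2 had a log2 fold change of -0.49 (SE 0.16, edgeR adjusted p = 0.181). Again 0 of 16 members passed, against 0.127% of all genes. Slc22a2 was the 1 member at an unadjusted p below 0.05, against 16.3% of all genes, and DESeq2, which called 0 members and 4.08% of all genes, gave it an adjusted p of 0.0515. The comparisons share libraries and are not independent of each other. A descending order of the 3 groups with no overlap was met by 48 of the 17335 tested genes, or 0.277%, and by Slc22a2 alone among the members.

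Slc47a1 (MATE1) releases organic cations into the urine after Slc22a2 has taken them up. Its level was 278.4 ± 20 CPM in I/R + rapamycin, 302.7 ± 20.1 CPM in I/R and 300.5 ± 22.7 CPM in sham (SD, n = 3 each), and its log2 fold change of I/R + rapamycin against sham was -0.11 (SE 0.099, edgeR adjusted p = 0.668). The FPKM ratio of Slc22a2 to Slc47a1 averaged 0.666 ± 0.0314 in I/R + rapamycin, 0.86 ± 0.109 in I/R and 1.32 ± 0.172 in sham (SD, n = 3 each). No groups overlapped in this ratio. Slc47a1 differed little between groups and was chosen with its values known, so the ratio largely restates the Slc22a2 levels given above. The ratio was given no test.

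**Figure D2:**
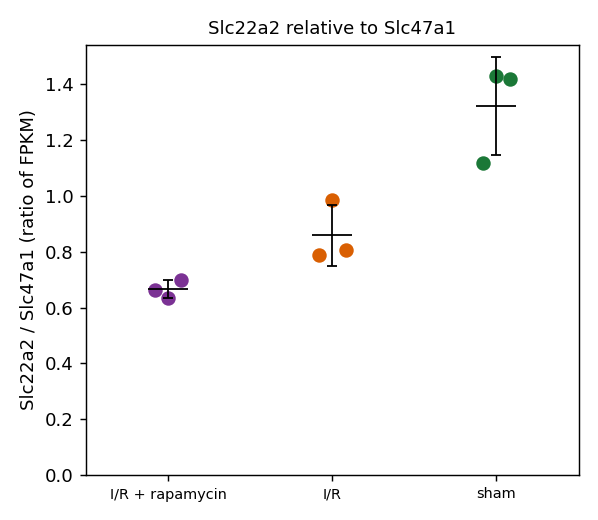
Ratio of FPKM values within a library (y axis, no unit) for Slc22a2 over Slc47a1, with 1 point per library and the mean and SD of each group (n = 3), for I/R + rapamycin, I/R and sham from left to right. The groups do not overlap, and their means are 0.666, 0.86 and 1.32. Slc47a1 was chosen with its values known, and the ratio largely restates the levels of Slc22a2.

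Stress-response genes moved in part with Slc22a2. The 9 measured of 11 immediate-early and heat shock genes summed to 355, 325.4 and 406.1 CPM in the I/R + rapamycin libraries, 363.9, 1514.4 and 1681.6 CPM in I/R libraries, and 588.5, 1332.4 and 3504.5 CPM in the sham libraries. I/R 1 and sham 1 were the lowest of their groups both in this sum and in Slc22a2, and none of the 9 genes was at 0 in a library. The part of this in the Slc22a2 result was not tested. The podocyte sum, given above, was also lower in every I/R + rapamycin and I/R library than in every sham library, as was the sum of 11 collecting duct markers, at 1202 to 1400.2 CPM in I/R + rapamycin, 1175 to 1373.9 CPM in I/R and 1436 to 1479.9 CPM in sham. The 4 measured of 7 erythrocyte markers summed to 252.3 to 719.8 CPM in I/R + rapamycin, 1420.9 to 3547.4 CPM in I/R and 431.7 to 2762.6 CPM in sham. I/R + rapamycin thus lay below I/R but overlapped sham. Slc4a1 is counted in both the erythrocyte and the collecting duct sum. It averaged 194.2 CPM in I/R + rapamycin, 208.7 CPM in I/R and 210.5 CPM in sham. In I/R + rapamycin 2 it made up 167.5 of the 252.3 CPM. None of these markers was at 0 in a library, and their part was not tested either.

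The genes whose pattern over the 9 libraries was closest to that of Slc22a2 were Cxcl11, a chemokine, Rhob, a small GTPase, and Dusp6, a phosphatase of ERK. Closeness was the root mean square difference of log2 CPM after centring each gene, and it was 0.208, 0.213 and 0.227 for these, against a median of 0.51 over 10365 candidate genes. Rhob was at 119.8 to 140.2 CPM in I/R + rapamycin, 157.6 to 271.6 CPM in I/R and 216.1 to 386.4 CPM in sham. The I/R and sham ranges of Rhob overlapped, as did those of Cxcl11, unlike those of Slc22a2. Dusp6 had the same order as Slc22a2 with no overlap. It was at 33.1 to 42.9 CPM in I/R + rapamycin, 46.8 to 60.1 CPM in I/R and 66.9 to 85.3 CPM in sham.

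The anion transporters Slc22a6 and Slc22a8 were abundant and did not differ beyond the spread. Slc22a6 was at 444, 524.2 and 513.9 CPM in I/R + rapamycin, 598.9, 636.2 and 505.4 CPM in I/R, and 478.6, 619.2 and 653.4 CPM in sham. The lowest value was in I/R + rapamycin 1 and the groups overlapped. Its log2 fold change was -0.24 (SE 0.14, edgeR adjusted p = 0.485) in I/R + rapamycin against sham, -0.23 (SE 0.14, edgeR adjusted p = 0.446) against I/R, and -0.01 (SE 0.14, edgeR adjusted p = 0.991) in I/R against sham.

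Slc22a8 was at 763.4, 862.5 and 857.7 CPM in I/R + rapamycin, 841.1, 893.5 and 649.4 CPM in I/R, and 804, 1003.8 and 870.2 CPM in sham. I/R 3 was lowest, sham 2 was highest and the groups overlapped. Its log2 fold change was -0.11 (SE 0.14, edgeR adjusted p = 0.776) in I/R + rapamycin against sham, 0.06 (SE 0.14, edgeR adjusted p = 0.875) against I/R and -0.17 (SE 0.14, edgeR adjusted p = 0.758) in I/R against sham. Each standard error leaves room for a modest difference in either direction.

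The closest genes to Slc22a8 outside the family were Slc27a2, a very long-chain fatty acid-CoA ligase, at a difference of 0.0389, Glyatl2, an acyltransferase, at 0.0468, and Jmjd6, a hydroxylase, at 0.0585, against a median of 0.226. Those closest to Slc22a6 were Dab2, an adaptor of megalin endocytosis, at 0.0708, Dram2, a lysosomal membrane protein, at 0.0734, and Aass, of lysine breakdown, at 0.0746, against a median of 0.249. Within the family, Slc22a8 and Slc22a6 differed by 0.154, against a median of 0.418 over 120 pairs of members.

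**Figure D3:**
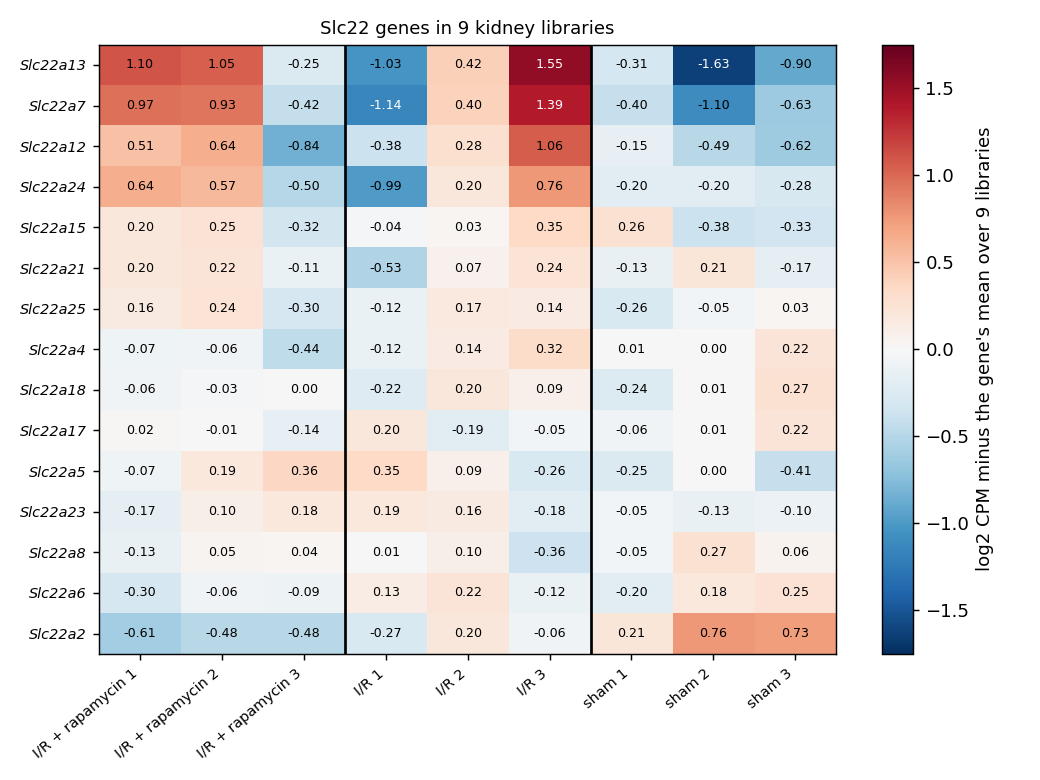
log2 CPM of 15 members minus the gene's mean over the 9 libraries (colour scale, log2 units), with genes in rows and libraries in columns, I/R + rapamycin, I/R and sham from left to right. Slc22a2 is low in all I/R + rapamycin libraries and high in all sham libraries, while Slc22a7, Slc22a12, Slc22a13 and Slc22a24 are high in I/R + rapamycin 1 and 2 and in I/R 3.

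Slc22a7, Slc22a12, Slc22a13 and Slc22a24 differed more between libraries of the same group than the other members did in both injured groups, but not in sham. Their coefficient of variation in CPM was 37.5% to 46% in I/R + rapamycin, 49.2% to 78% in I/R, and 3.15% to 43.7% in sham. For the other 12 members it was 1.88% to 20.5% in I/R + rapamycin, 10.7% to 25.9% in I/R and 2.64% to 26% in sham. Slc22a13 encodes OAT10, which carries nicotinate and urate on the urine side, and Slc22a24 is listed by RefSeq with the synonym Oat5, an organic anion exchanger in rat. The highest CPM of the 9 libraries was 9.06 times the lowest for Slc22a13, 5.78 times for Slc22a7, 3.73 times for Slc22a12 and 3.35 times for Slc22a24. The ratio was 2.6 for Slc22a2 and 1.29 to 1.7 for the other 11, against a median of 1.47 over 11308 genes of at least 5 CPM. By the SD within groups, the 4 stood at the percentiles 99, 98.9, 97.8 and 97.7 of those genes for Slc22a13, Slc22a7, Slc22a12 and Slc22a24.

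Slc22a7 was at 105.2, 102.9 and 40.2 CPM in I/R + rapamycin, 24.4, 71 and 141 CPM in I/R, and 40.8, 25.1 and 34.8 CPM in sham. I/R + rapamycin 1 and 2 and I/R 3 were high, and I/R 1 was below the lowest sham library. Its log2 fold change was 1.3 (SE 0.66, edgeR adjusted p = 0.445) in I/R + rapamycin against sham, 0.07 (SE 0.64, edgeR adjusted p = 0.974) against I/R and 1.23 (SE 0.66, edgeR adjusted p = 0.63) in I/R against sham.

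Slc22a12 was at 224.7, 246.5 and 88.2 CPM in I/R + rapamycin, 121.5, 192.6 and 329.1 CPM in I/R, and 142.4, 112.3 and 102.9 CPM in sham. The same 3 libraries were high, and the lowest value of all was in I/R + rapamycin 3. Its log2 fold change was 0.65 (SE 0.47, edgeR adjusted p = 0.598) in I/R + rapamycin against sham, -0.2 (SE 0.46, edgeR adjusted p = 0.875) against I/R and 0.85 (SE 0.47, edgeR adjusted p = 0.638) in I/R against sham.

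Slc22a13 was at 70.3, 68.1 and 27.6 CPM in I/R + rapamycin, 16, 44 and 96 CPM in I/R, and 26.5, 10.6 and 17.6 CPM in sham. Every I/R + rapamycin library was above every sham library, but I/R + rapamycin 3 exceeded sham 1 by little, and the log2 fold change of 1.6 did not pass (SE 0.71, edgeR adjusted p = 0.391). In I/R against sham the log2 fold change was 1.51 (SE 0.71, edgeR adjusted p = 0.581), with overlapping groups. Slc22a24 ranged over 50.2 to 110 CPM in I/R + rapamycin, 35.6 to 119.5 CPM in I/R and 58.4 to 61.8 CPM in sham.

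Slc7a13, an amino acid transporter gene of the last proximal tubule segment, S3, in rodents, was among the 3 genes closest to Slc22a7 and was chosen with its values known. Slc7a13 was at 1263.4, 1137.1 and 392.8 CPM in I/R + rapamycin, 271.2, 586.2 and 1309.7 CPM in I/R, and 539.3, 253.1 and 308.8 CPM in sham. It was high in the same 3 libraries. Slc22a7 divided by Slc7a13 in CPM ranged 1.6-fold over the 9 libraries, Slc22a13 1.79-fold, Slc22a12 2.52-fold and Slc22a24 2.8-fold. Slc7a13 was also among the 3 genes closest to Slc22a13, at 0.259. A narrow range of the ratio for Slc22a7 and Slc22a13 thus follows from that choice. Elsewhere in the proximal tubule list, Slc3a1 and Slc6a18 were also highest in I/R + rapamycin 1 and 2 and I/R 3. Slc3a1 was at 2616.7, 2495.4 and 3290.6 CPM there, and lowest in I/R 1 at 1170.9 CPM. Slc6a18 was at 290.7, 284.1 and 397 CPM there, and lowest in I/R 1 at 148 CPM. Ggt1 followed in part, and Slc34a1 did not, at 3293.7 CPM in I/R 1 and 2815.3 CPM in I/R 3. Of the listed genes of later segments, Slc5a1 followed in part and Cyp7b1 did not. Slc5a1 was at 22.2, 25.3 and 23.7 CPM in I/R + rapamycin, 18.9, 22.8 and 37.9 CPM in I/R, and 20.8, 15.2 and 24.7 CPM in sham, highest in I/R 3 with little spread in I/R + rapamycin. Cyp7b1 was at 4.46, 5.36 and 5.24 CPM in I/R + rapamycin, 5.41, 6.28 and 5.5 CPM in I/R, and 4.82, 4.96 and 7.9 CPM in sham, highest in sham 3.

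**Figure D4:**
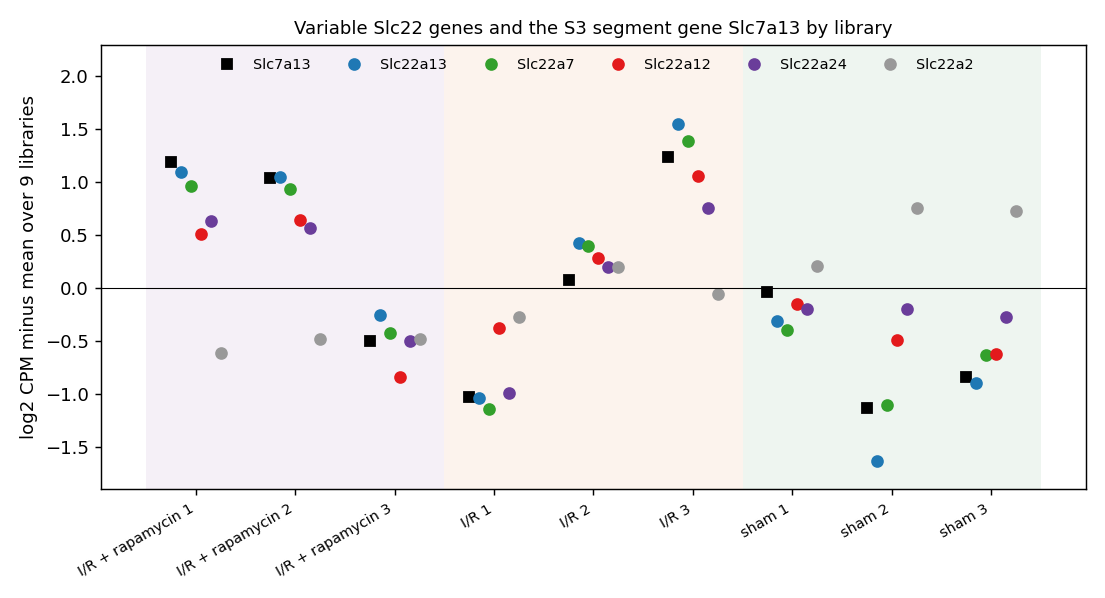
log2 CPM minus the mean over the 9 libraries (y axis) for the variable members, Slc22a2 and Slc7a13 in each library (x axis), I/R + rapamycin, I/R and sham from left to right. The variable members and Slc7a13 are high together in I/R + rapamycin 1 and 2 and I/R 3, and Slc22a2 does not follow them. All of the variable members and Slc7a13 lie below their means in I/R 1. Slc22a12 does so by the least, at -0.38, and is lowest in I/R + rapamycin 3 at -0.84.

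The closest genes to Slc22a7 outside the family were the amino acid transporter genes Slc7a12 (0.17) and Slc7a13 (0.205) and the cyclophilin gene Ppic (0.219), against a median of 0.902 over the candidates. For Slc22a12 they were Itih5, of the extracellular matrix, at 0.156, Gclm, a subunit of the enzyme that starts glutathione synthesis, at 0.2, and the drug pump gene Abcb1a at 0.204, against a median of 0.634. Slc22a7 and Slc22a13 differed by 0.226, and Slc22a2 and Slc22a13 were the farthest pair of the family at 1.38. Markers of the thick ascending limb and distal tubule, 8 of 9 measured, also summed highest in I/R + rapamycin 1 at 5505.1 CPM and in I/R 3 at 5084.7 CPM. The other 7 libraries summed to 3338.7 to 3949 CPM. Most of the sum came from Umod, at 3066.6 and 2758.2 CPM in those libraries, and Slc12a1, at 1283.4 and 1160.1 CPM. Slc12a3 went the other way and was lowest there, at 246.8 and 304.7 CPM. Calb1 was lowest in I/R 3 at 310.9 CPM, and Trpm6 in I/R + rapamycin 1 at 25.4 CPM. None of the 8 was at 0, and their part in the spread was not tested.

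The carnitine transporter Slc22a5 was at 273.7, 325.7 and 366.6 CPM in I/R + rapamycin, 366, 304.6 and 239.4 CPM in I/R, and 240.9, 285.5 and 215.8 CPM in sham. I/R + rapamycin 3 and I/R 1 were highest, and the groups overlapped. Its log2 fold change of I/R + rapamycin against sham was 0.38 (SE 0.17, edgeR unadjusted p = 0.0468, adjusted p = 0.353). Slc22a2 and Slc22a5 were the 2 members at an unadjusted p below 0.05 in that comparison, against 13.8% of all genes.

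Slc22a4 was at 25.1, 25.4 and 19.5 CPM in I/R + rapamycin, 24.3, 29.1 and 33 CPM in I/R, and 26.7, 26.4 and 30.9 CPM in sham. All I/R + rapamycin libraries were below all sham libraries by a narrow margin, and the log2 fold change of -0.26 did not pass (SE 0.14, edgeR adjusted p = 0.447). Slc22a2, Slc22a4 and Slc22a13 were the 3 of 16 members whose I/R + rapamycin and sham values did not overlap in CPM, against 19.3% of all genes. In I/R against sham, 1 of 16 had no overlap, against 14.6% of all genes, and in I/R + rapamycin against I/R, 1 of 16, against 24.6%; both were Slc22a2.

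Among the remaining members, the SD within groups was at the percentiles 87.3 for Slc22a15 and 85.1 for Slc22a21 of the 11308 genes, and at 44.8 to 70 for Slc22a17, Slc22a18, Slc22a23 and Slc22a25. Slc22a18, an imprinted gene in human and mouse, ranged over 96.1 to 136.9 CPM in the 9 libraries. Slc22a25, listed by RefSeq with the synonym Ust1, ranged over 160.9 to 233.1 CPM, and Slc22a23, whose substrates are not established, over 192.7 to 249.3 CPM. Slc22a17, listed with the synonym 24p3R for a lipocalin receptor, ranged over 17.4 to 23.1 CPM, Slc22a15 over 14.6 to 24.2 CPM and Slc22a21, a carnitine transporter in mouse, over 10.5 to 17.9 CPM. The family as a whole had a median log2 fold change of 0.13 in I/R + rapamycin against sham, -0.02 against I/R and 0.1 in I/R against sham. The medians of all tested genes were 0, 0.01 and 0 in those comparisons.

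**Figure D5:**
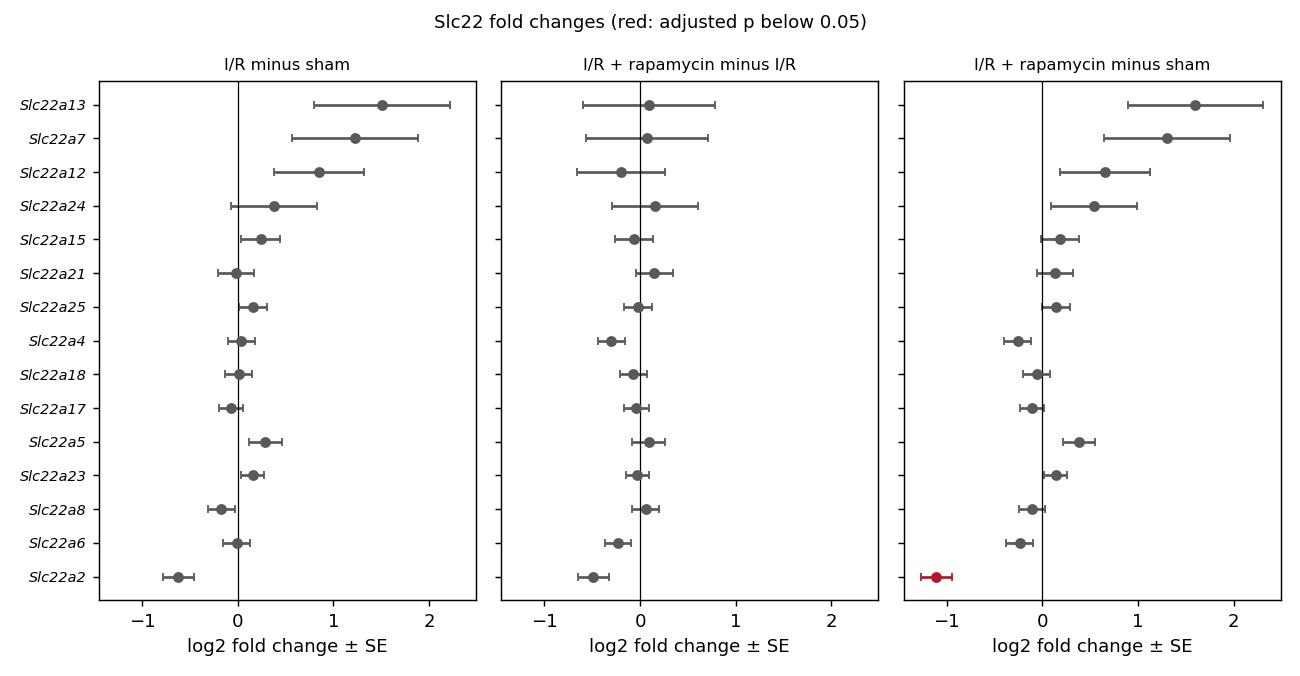
log2 fold change with its standard error (x axis, log2 units) of 15 members (rows) in I/R minus sham, I/R + rapamycin minus I/R, and I/R + rapamycin minus sham, in panels from left to right, with red for an adjusted p below 0.05. Slc22a2 at -1.11 in I/R + rapamycin against sham is the value that passed the test, and the standard errors of Slc22a7 and Slc22a13 reach 0.66 and 0.71 in I/R against sham.

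Transporters that work with the Slc22 proteins were measured through 16 of 21 listed genes, and 0 were called in any comparison by the edgeR test. Their median log2 fold change was 0.04 in I/R + rapamycin against sham, -0.18 against I/R and 0.34 in I/R against sham. At an unadjusted p below 0.05 there were 2, 2 and 7 of the 16 in these comparisons, against 13.8%, 16.3% and 9.42% of all genes. Slc5a8, a sodium-coupled monocarboxylate transporter gene, was at 68.5, 86.2 and 70.2 CPM in I/R + rapamycin, 95.7, 114.9 and 126.7 CPM in I/R, and 72.3, 72.5 and 75.7 CPM in sham. I/R stood above the other groups without overlap, at log2 fold changes of -0.58 for I/R + rapamycin against I/R (SE 0.12, edgeR adjusted p = 0.0927) and 0.61 for I/R against sham (SE 0.12, edgeR adjusted p = 0.166).

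Slc17a3, an organic anion and urate exit transporter gene, was at 113.6, 133.9 and 156.5 CPM in I/R + rapamycin, 139.6, 138.3 and 114.3 CPM in I/R, and 164.3, 194.4 and 225 CPM in sham. Both injured groups lay below sham without overlap, at log2 fold changes of -0.53 for I/R + rapamycin against sham (SE 0.15, edgeR adjusted p = 0.18) and -0.57 for I/R against sham (SE 0.15, edgeR adjusted p = 0.276). Slc13a2, a dicarboxylate transporter gene, had a log2 fold change of 0.56 in I/R against sham (SE 0.15, edgeR adjusted p = 0.283). DESeq2 called 1 of the 16 lower in I/R + rapamycin against sham, 2 lower against I/R, and 2 higher and 1 lower in I/R against sham, where it called 3.31%, 4.08% and 1.38% of all genes.

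Regulators and scaffold proteins of these transporters were measured through 16 of 20 listed genes, with 0 called by edgeR. DESeq2 called 0 in I/R + rapamycin against sham, 2 lower against I/R and 1 higher in I/R against sham, where it called 3.31%, 4.08% and 1.38% of all genes. At an unadjusted edgeR p below 0.05 there were 3, 6 and 3, against 13.8%, 16.3% and 9.42% of all genes. Ppara, a nuclear receptor of fatty acid use, averaged 13.6 ± 2.92 CPM in I/R + rapamycin, 26 ± 6.19 CPM in I/R and 15.6 ± 1.98 CPM in sham (SD, n = 3 each). Its log2 fold change was -0.93 in I/R + rapamycin against I/R (SE 0.2, edgeR adjusted p = 0.099) and 0.74 in I/R against sham (SE 0.2, edgeR adjusted p = 0.288).

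Genes of carnitine synthesis and use, the cargo of Slc22a5, were measured through 9 of 10 listed, with 0 called by edgeR in any comparison. All 9 had a positive log2 fold change in I/R + rapamycin against sham, with a median of 0.28 against 0 for all tested genes, where 4 had an unadjusted p below 0.05, against 13.8% of all genes, and DESeq2 called 2 higher, against 3.31% called in either direction. Crat, carnitine acetyltransferase, was at 164.8, 163.1 and 145.2 CPM in I/R + rapamycin and 125.6, 123 and 125.9 CPM in sham, with no overlap (log2 fold change 0.34, SE 0.087, edgeR adjusted p = 0.161). Cpt1a, which commits fatty acids to mitochondria, was at 168.5, 181.3 and 179.2 CPM in I/R + rapamycin, 196, 204.6 and 204 CPM in I/R, and 157.4, 135.6 and 135 CPM in sham. The I/R values were highest and no groups overlapped, and the log2 fold change of I/R against sham was 0.5 (SE 0.088, edgeR adjusted p = 0.105).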

How the data were processed

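Poly(A) libraries were sequenced in paired-end reads of 150 bases, per the labels' protocols. Per the submitters' processing notes, the tools were DESeq2, StringTie, HISAT2 and cutadapt (versions not listed) and the build was Rnor_6.0. No source used here gives the annotation, strand setting or counting rule, so reads of antisense partners cannot be told apart. No Slc22 gene overlapped another gene listed in the expression table. The authors deposited raw counts for 30454 gene IDs, and FPKM for 11235 genes per the file headers, the source of all symbols. Slc22 genes without a row there are not analysed here, and 1 member and 1 regulator are counted but not reported here.

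Counts were tested in R 4.3.3 with edgeR 4.0.16 (TMM, default filter, robust quasi-likelihood), all 9 libraries in one fit, with Benjamini-Hochberg adjustment and a threshold of 0.05. Standard errors are the log2 fold change over the root of F. Alternatives used DESeq2 1.42.0 and limma 3.58.1. The test was tried on simulated counts with changes of known size. Over the comparisons it recovered 10% to 14% of 1.5-fold changes, 69% to 73% of 2-fold changes and 88% to 90% of 4-fold changes. A gene without a call may thus still differ by about 1.5-fold. Libraries of a group differed by a chi-square per degree of freedom of 33.7 to 133.1, so none was a duplicate. The parts of depth and of spread between libraries in the precision were not tested.

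The members and lists were chosen with earlier results of these data known. The 5 main members are given in every library; others likewise where a test or a non-overlap singled them out. From each list, genes with the smallest p are named. Slc47a1, Slc7a13, Rhob, Dusp6, Slc3a1, Slc6a18, Ggt1, Slc34a1 and the single thick limb and distal markers were picked with their values known. The 3 most similar genes come from candidates with a mean of at least 5 CPM.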

Additional observations from a re-analysis of the deposited data

How the results depend on the processing

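Slc22a2 in I/R + rapamycin against sham kept its direction in all 23 alternatives, at log2 fold changes of -1.27 to -1.02. It passed the threshold in 18, with adjusted p of 1.69e-08 to 0.151 over the edgeR, DESeq2 and limma fits. The 5 without a call each left out a library, and the number of members called in this comparison was 0 to 1. The 18 include the main fit read at a threshold of 0.1, which could not disagree, and fits without an I/R library, outside this comparison. Where 1 I/R + rapamycin or sham library alone was left out, only the fit without sham 1 kept the call (edgeR adjusted p = 0.0232). DESeq2 called 1 member in I/R against sham, Slc22a2. Pairing by replicate number was not evident: the correlations of same-numbered libraries were -0.41 to 0.18, and 2 of 9 exceeded 0.1. In I/R + rapamycin against sham they were 0.1, 0.09 and 0.18. Such correlations of values centred on groups of 3 libraries cannot exclude pairing. With the replicate block Slc22a2 had -1.09 (adjusted p = 0.0459), the members called stayed at 0, 0 and 1 in I/R against sham, I/R + rapamycin against I/R and I/R + rapamycin against sham, and all genes called were 1, 1 and 7.

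All genes called in I/R against sham were 10; they were 239 with DESeq2, 2 with the 6 libraries compared, 22, 25 and 16 with limma on log2(FPKM + 1), log2(FPKM + 0.1) and genes of mean FPKM at least 5, 31 with the length trend removed, 19 at a threshold of 0.1, 67 without I/R 1 and sham 3, and 0 to 36 with 1 library left out. In I/R + rapamycin against I/R they were 22; they were 708 with DESeq2, 6 with 6 libraries, 12, 11 and 9 with limma, 135 at 0.1, 128 without I/R 1 and sham 3, and 0 to 47 with 1 library left out. In I/R + rapamycin against sham they were 27; they were 573 with DESeq2, 14 with limma at a mean FPKM of at least 5, 97 at 0.1, 104 without I/R 1 and sham 3, and 3 to 47 with 1 library left out. The causes were not tested.

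Of 1032 member values under alternatives, 967 kept direction and side of the threshold, and 59, none past it, changed sign. The 1032 include the main fit read at a threshold of 0.1, which could not change direction, and fits without a library outside the comparison. In I/R against sham Slc22a6 had 0 with the block and with FPKM-table genes, 0.02 with each limma fit, 0.03 after removal of the length trend and 0.05 with I/R 1 and sham 3 left out. There Slc22a18 had 0 with upper-quartile factors, and Slc22a21 0.1 with those libraries left out. For rapamycin-treated against untreated I/R, removal of the length trend gave 0.12 for Slc22a23 and -0.05 for Slc22a7. Without I/R 1 and sham 3 it was -0.36 for Slc22a7, -0.19 for Slc22a24, -0.34 for Slc22a13, -0.04 for Slc22a21, 0.07 for Slc22a17 and 0.04 for Slc22a23, and 0.08 for Slc22a18 in I/R + rapamycin against sham. With 1 library left out, I/R against sham ranged over -0.13 to 0.08 for Slc22a6, -0.11 to 0.15 for Slc22a18, -0.18 to 0.02 for Slc22a17, -0.07 to 0.15 for Slc22a4, -0.05 to 0.73 for Slc22a24 and -0.18 to 0.17 for Slc22a21. Likewise I/R + rapamycin against I/R ranged over -0.36 to 0.8 for Slc22a7, -0.34 to 0.88 for Slc22a13, -0.49 to 0.25 for Slc22a12, -0.19 to 0.59 for Slc22a24, -0.06 to 0.24 for Slc22a5, -0.13 to 0.07 for Slc22a17, -0.14 to 0.07 for Slc22a23, -0.12 to 0.13 for Slc22a25, -0.07 to 0.15 for Slc22a8, -0.18 to 0.02 for Slc22a18, -0.16 to 0.1 for Slc22a15 and -0.04 to 0.31 for Slc22a21. Slc22a18 in I/R + rapamycin against sham ranged over -0.18 to 0.08.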

Other observations

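The FPKM ratio of Slc22a6 to Slc22a8, the paired anion uptake transporters of the blood side, was 1.04, 1.08 and 1.07 in I/R + rapamycin, 1.27, 1.27 and 1.39 in I/R, and 1.06, 1.1 and 1.34 in sham. I/R + rapamycin and I/R did not overlap, while sham 3 lay with the I/R libraries. The ratio was chosen after earlier results were known and was given no test. The lengths implied by counts and FPKM were 2499.7 bases for Slc22a6 and 4449.1 bases for Slc22a8, and the part of length in the ratio was not tested.

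Enzymes that form or break down purines, the source of the urate carried by Slc22a12, were measured through 5 of 7 listed genes, with 0 called by edgeR in any comparison. At an unadjusted p below 0.05 there was 1 of the 5 in each comparison. The share of all genes was 13.8% in I/R + rapamycin against sham, 16.3% against I/R and 9.42% in I/R against sham. DESeq2 called 1 lower in I/R + rapamycin against sham, where it called 3.31% of all genes in either direction. All 5 had a negative log2 fold change in I/R + rapamycin against sham and in I/R against sham, with medians of -0.14 and -0.17. Of all tested genes, 49.8% and 49.3% were below 0 in these comparisons. Gda, guanine deaminase, had a log2 fold change of -1.03 in I/R + rapamycin against sham, with no overlap (SE 0.31, edgeR adjusted p = 0.204). Ada, adenosine deaminase, had one of -0.64 in I/R against sham, with overlapping groups (SE 0.22, edgeR adjusted p = 0.405).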
